A study of Sus scrofa with 9 samples.

Results

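Interferon-stimulated genes are the genes that a cell switches on when interferon, secreted by a cell that has sensed viral or misplaced nucleic acid, binds its receptors. Receptor-bound kinases then phosphorylate STAT2, which enters the nucleus in a complex with IRF9, and this complex turns on genes whose products sense RNA, degrade it, block its translation or trap virus at the membrane. The same genes have a place in the artery wall, where macrophages, endothelium and smooth muscle cells all respond to interferon and where plaques hold macrophages in large numbers. The set described here is a list of 42 symbols from that response. The rule that picks them uses names and no measured value, but the list was drawn up with earlier results of these data known. A row under the same symbol was found for 37 of the 42, out of 21357 genes in the table, and where a symbol had several rows the one with the highest mean level was taken. IFIT3, OAS1, EIF2AK2, GBP1 and XAF1 are not analysed here.

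Expression was measured by poly(A) RNA-seq in the abdominal aorta of Tibetan minipigs, with 3 libraries per group. The NC group ate a normal diet for 24 weeks, the H24 group ate a high-fat/cholesterol (HFC) diet for 24 weeks, and the H8 group ate a high-fat diet for 8 weeks. NC and H24 pigs were males bought at 3 to 4 months of age and allocated to a diet after an adaptation period, and the pigs sequenced were a random pick from each group, while the sources used here describe the H8 pigs by diet and time alone. The study asked how a diet that raises cholesterol and produces atherosclerosis alters the vessel wall. H8 has no control fed for the same time, so the high-fat diet and the length of feeding cannot be told apart in H8/NC, nor longer feeding from age in H24/H8. The H8 diet is named only as high-fat and the source of the H8 pigs is not given. A difference in diet composition or in the pigs can therefore not be told apart from these in either comparison. Each library is taken as 1 pig, and no interferon, virus or other agent was given to any group.

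The libraries held 44094263 to 75787978 counts, and 3 counts in a library corresponded to 0.0396 to 0.068 CPM (counts scaled to the size of the library). H24 replicate 3 stood apart. Its log2 CPM correlated with those of the other H24 libraries at 0.883 and 0.914, its smooth muscle markers (8 genes, ACTA2 and MYH11 among them) summed to 1770 FPKM against 8280 to 14100 in the other 8 libraries, and its macrophage markers (12 genes) summed to 2530 FPKM against 31.3 to 394. Counts of calls and the folds that this library moved by more than 1.5 times are therefore also given without it. In tissue RNA, a larger number of cells that express a gene and more of its RNA per cell cannot be told apart. Some adipocyte markers also differed. ADIPOQ, made by fat cells, was at 4.44 to 14.6 FPKM in NC, at 0.0789 to 0.106 FPKM in H8 and at 7.24, 0.0705 and 0.416 FPKM in H24. PLIN1, LEP and CIDEC were also lower in every H8 library than in every NC library, while FABP4 and LPL overlapped between NC and H8. The part of adipocyte RNA in the results was not tested. ACTA2, the actin of arterial smooth muscle, was at 545 to 3260 FPKM in all libraries.

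After 24 weeks of the HFC diet a majority of the interferon-stimulated genes were higher than in NC. The exonuclease ISG20, near 0 counts in NC, was present in every H24 library, and the next largest rises were those of the restriction factor BST2 (9.55-fold), the ADP-ribosyltransferase PARP14 (6.67-fold) and the GTPase MX2 (5.21-fold). Without H24 replicate 3 they were 4.62-fold for BST2, 5.2-fold for PARP14 and 3.57-fold for MX2, and PARP14 then ranked above BST2. In H24/NC, 21 of the 36 genes tested were called higher and 0 lower, where a call needs an unadjusted p under 0.05 and a log2 fold change beyond 1 in edgeR's quasi-likelihood test. The same rule called 9.95% of all 14828 tested genes higher and 1.52% lower. All 36 had a log2 fold change above 0, against 50.6% of all genes, and their median was 1.15 against 0.01. In 20 of the 36 every H24 library was above every NC library, which held for 12.8% of all genes, and in none was every H24 library below (7.8%). OASL, at a mean below the 0.1 FPKM minimum in these libraries, was not tested, and ISG20 passed the minimum through its H24 level, so that it had to differ. Without ISG20, 20 of 35 genes were called higher, 19 of 35 did not overlap and the median was 1.09.

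With edgeR's quasi-likelihood test 0 of the 36 had a Benjamini-Hochberg adjusted p under 0.05, the lowest being 0.132. An unadjusted p under 0.05 was reached by 24, all higher in H24 (11.0% of all genes), or by 23 of 35 without ISG20. With DESeq2, 14 of the 36, ISG20 among them, passed the adjusted threshold with the same fold change (5.93% of all genes). Leaving out H24 replicate 3, edgeR called 17 of them higher (6.49% of all genes), or 16 of 35 without ISG20. The 17 include ISG15, which was not called with all libraries. Of the 17, 1, BST2, also passed after adjustment (1.99% of all genes).

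After 8 weeks of the high-fat diet the genes called higher included BST2 (2.98-fold), IFI6 (3.03-fold), MX2 (2.84-fold), the ubiquitin-like modifier ISG15 (2.67-fold) and the transcription factor IRF7 (2.52-fold). In H8/NC, 11 of 36 were called higher (5.11% of all 14336 genes) and 0 lower (2.27%), 28 had a log2 fold change above 0 (51.5%) and the median was 0.67. All H8 libraries were above all NC libraries for 12 of them (6.91% of all genes), and below for 1 of them, PARP9 (15.9%). ISG20 again passed the minimum through the diet group, and without it 10 of 35 were called, 11 of 35 were above NC in all libraries and the median was 0.61. After adjustment edgeR called 0 of them in either direction (0.014% of all genes higher and 0.014% lower). The lowest adjusted p was 0.108, for BST2, 16 genes had an unadjusted p under 0.05 in the direction of H8 (8.89%), and DESeq2 called 8 after adjustment (3.1%). ISG20 was among the 16 and among the 8.

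In the H24 group compared with the H8 group, the genes called higher were OAS2, PARP9, PARP14, BST2, CMPK2 and SAMHD1. They made 6 of 37 in H24/H8 (7.22% of all 14788 genes), and 0 were called lower (3.05%). The median log2 fold change was 0.55 against 0.04 over all genes, 32 were above 0 (53.0%), and the groups did not overlap for 13 with H24 higher (15.5%) and for 0 with H24 lower (6.31%). After adjustment edgeR called 0 of them (0.0135% of all genes higher), the lowest adjusted p was 0.336, 8 genes had an unadjusted p under 0.05 with H24 higher (8.68%), and DESeq2 called 1 after adjustment, OAS2 (3.02%). Without H24 replicate 3 the number called was 1, again OAS2 (3.75% of all genes).

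**Figure D1:**
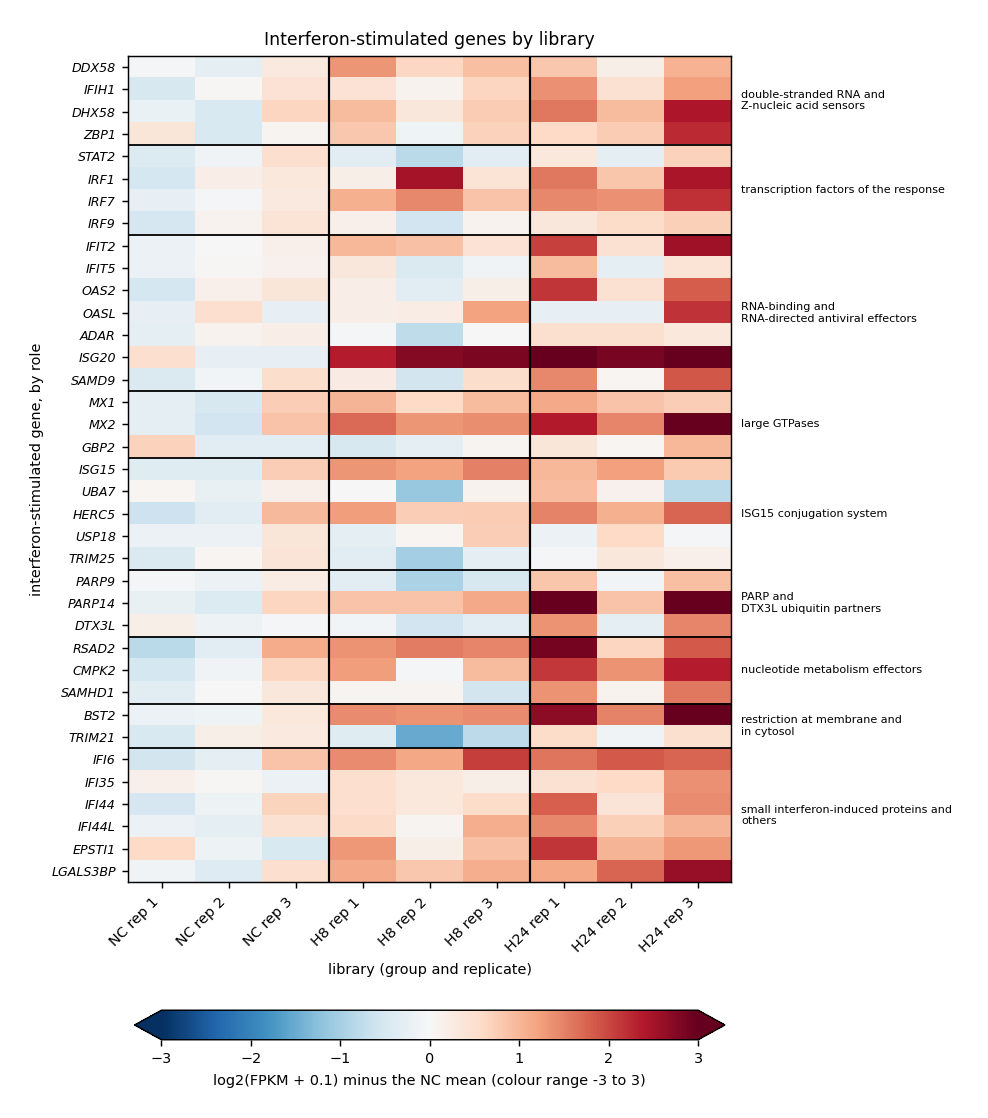
Level of each interferon-stimulated gene in each of the 9 aorta libraries, as log2 of FPKM plus 0.1 relative to the mean of the 3 NC libraries, with genes grouped by role and the colours capped at -3 and 3. Most genes are above the NC mean in H24 replicates 1 and 3 and nearer to it in H24 replicate 2 and the H8 libraries, with ISG15, IFI6, MX2, BST2 and LGALS3BP high in all 3 of them.

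The libraries of one diet differed from each other. Over the 37 genes, the median log2 level relative to the NC mean was -0.26, -0.15 and 0.36 in NC replicates 1 to 3. It was 0.51, 0.17 and 0.68 in the H8 replicates and 1.36, 0.59 and 1.46 in the H24 replicates. NC replicate 3 was the highest NC library for 30 of the 37 genes, H8 replicate 2 the lowest H8 library for 26, and H24 replicate 2 the lowest H24 library for 25. H24 replicate 2 exceeded every NC library in 23 genes and was below all of them in 2, IFIT5 and DTX3L. How many of all genes lay outside the NC range in that library was not counted. Summed over the genes, FPKM ran from 219 to 362 in NC, from 349 to 437 in H8 and from 474 to 748 in H24. In this sum, where abundant genes such as LGALS3BP, IFI6 and MX1 weigh most, the lowest H24 library was above the highest H8 library. By the median over genes it was not, with H24 replicate 2 at 0.59 and H8 replicate 3 at 0.68.

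**Figure D2:**
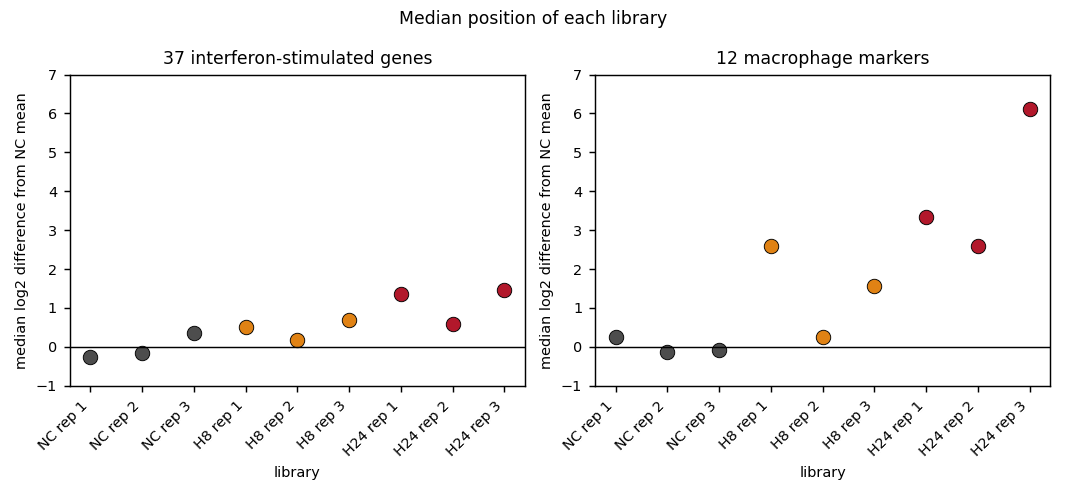
Median log2 level relative to the NC mean in each library, for the interferon-stimulated genes (left) and 12 macrophage markers (right) on the same vertical axis. The interferon genes reach 1.36, 0.59 and 1.46 in the 3 H24 libraries, and the macrophage markers spread from 2.59 to 6.11 there. In H8 replicate 2 both lists are near the NC mean, at 0.17 for the interferon genes and 0.25 for the macrophage markers.

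The sensors come first in the pathway. DDX58 (RIG-I), which recognises viral RNA ends, stood at 3.16, 2.65 and 3.96 FPKM in NC, at 8.22, 5.03 and 6.1 FPKM in H8 and at 5.74, 3.64 and 6.77 FPKM in H24. The H8 libraries were all above NC, and H24 replicate 2 fell inside the NC range. DDX58 rose in H8/NC by 2.17-fold (log2 1.12 ± 0.22 SE, adjusted p = 0.172 with edgeR), a call that was lost without H8 replicate 1, and its H24/NC value was 1.63-fold (log2 0.7 ± 0.29, adjusted p = 0.354). DHX58 (LGP2), which tunes the activity of RIG-I and MDA5, was at 1.32, 1.1 and 2.48 FPKM in NC, 3.05, 1.98 and 2.68 in H8 and 4.8, 3.08 and 8.69 in H24. Every H24 library was above every H8 and NC library. It rose 3.34-fold in H24/NC (log2 1.74 ± 0.48, adjusted p = 0.191 with edgeR) and kept its call with each library left out. IFIH1 (MDA5), which binds long double-stranded RNA, was at 0.66 to 1.33 FPKM in NC and 1.36 to 2.63 in H24 and was called 2.1-fold higher. ZBP1, a sensor of Z-form nucleic acid, was at 1.67 to 3.0 FPKM in NC and 3.56 to 11.3 in H24 and was called 2.63-fold higher (1.57-fold without H24 replicate 3). Both calls were lost when NC replicate 1, NC replicate 2 or H24 replicate 3 was left out, IFIH1 also without H24 replicate 1 and ZBP1 also without NC replicate 3.

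Of the transcription factors, IRF7, which drives the amplifying wave of interferon production, was higher in both diet groups. Its FPKM was 0.997, 1.15 and 1.5 in NC, 2.61, 3.41 and 2.24 in H8 and 3.41, 3.27 and 5.82 in H24. No NC library overlapped either diet group. The rise was 2.52-fold in H8/NC (log2 1.33 ± 0.31, adjusted p = 0.192) and 3.38-fold in H24/NC (log2 1.76 ± 0.36, adjusted p = 0.132 with edgeR), and H24/H8 was 1.31-fold (log2 0.39 ± 0.36). IRF1, a factor that also responds to interferon gamma, was at 5.69, 9.48 and 10.3 FPKM in NC, at 9.23, 46.8 and 10.9 in H8 and at 24.9, 14.8 and 45.7 in H24. H8 replicate 2 was at more than 4 times either other H8 library. The 3.02-fold H8/NC call for IRF1 was lost without that library (log2 0.31), without NC replicates 1 or 2, or without NC replicate 3, while its 3.29-fold rise in H24/NC was kept with each library left out. H24/H8 for IRF1 was log2 0.08 ± 0.73 and became 1.36 without H8 replicate 2.

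The other factors, which form the complex downstream of the receptor, were not called in any comparison. STAT2 stood at 15.9, 19.9 and 30.3 FPKM in NC, 17.0, 12.1 and 17.1 in H8 and 26.3, 17.7 and 34.5 in H24. NC and H24 overlapped, and all H24 libraries were above all H8 libraries. Its log2 fold change was 0.22 ± 0.34 in H24/NC and 0.58 ± 0.28 in H24/H8. IRF9 averaged 18.7 ± 5.65 FPKM (SD, n = 3) in NC, 17.2 ± 4.42 in H8 and 26.4 ± 3.56 in H24.

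Among the genes that act on RNA, OAS2 separated the 24-week pigs from both other groups. OAS2 makes the short oligoadenylates that activate RNase L. It was at 9.73, 15.8 and 18.3 FPKM in NC and at 16.2, 11.3 and 15.9 in H8, against 63.0, 19.3 and 50.1 in H24. NC and H8 overlapped, and H24 replicate 2 was just above them. OAS2 rose 2.94-fold in H24/NC (log2 1.55 ± 0.46, adjusted p = 0.216) and 2.68-fold in H24/H8 (log2 1.42 ± 0.41, adjusted p = 0.336 with edgeR), with 1.08-fold in H8/NC (log2 0.11 ± 0.25). Both calls were kept with each library left out.

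ISG20, an exonuclease of single-stranded RNA, gave 4, 0 and 0 counts in NC, 32, 44 and 51 in H8 and 78, 31 and 279 in H24. The diet groups were above NC in every library and overlapped each other in counts, although not in FPKM (0.503 to 0.734 in H8, 0.747 to 5.04 in H24). Its pooled CPM was 30.7 times the NC value in H8 (95% exact interval 11.7 to 114, counting error only) and 117 times in H24 (45.3 to 431), or 51.1 times (19.4 to 191) without H24 replicate 3. IFIT2, a binder of viral RNA, was at 0.827, 0.949 and 1.06 FPKM in NC, 1.99, 1.8 and 1.3 in H8 and 4.24, 1.32 and 5.93 in H24. Both diet groups lay above NC, and H24 replicate 2 was level with the lowest H8 library. It rose 3.96-fold in H24/NC, and in H8/NC its log2 fold change of 0.99 ± 0.27 fell just short of the limit for a call.

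SAMD9, an antiviral factor acting on translation, was called in H24/NC (2.44-fold) but overlapped NC and lost the call when any of NC replicates 1 and 2 or H24 replicates 1 and 3 was left out. IFIT5, another binder of RNA ends (5.55 to 14.6 FPKM over the 9 libraries), and the RNA-editing deaminase ADAR were not called. ADAR was at 8.52 to 11.9 FPKM in NC, 6.09 to 10.3 in H8 and 13 to 14.6 in H24, with H24 above both other groups (H24/NC log2 0.39 ± 0.22). OASL gave 0 counts in 4 of the 9 libraries and at most 40, in H24 replicate 3. It passed the minimum in H24/H8 through that library and was not called.

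**Figure D3:**
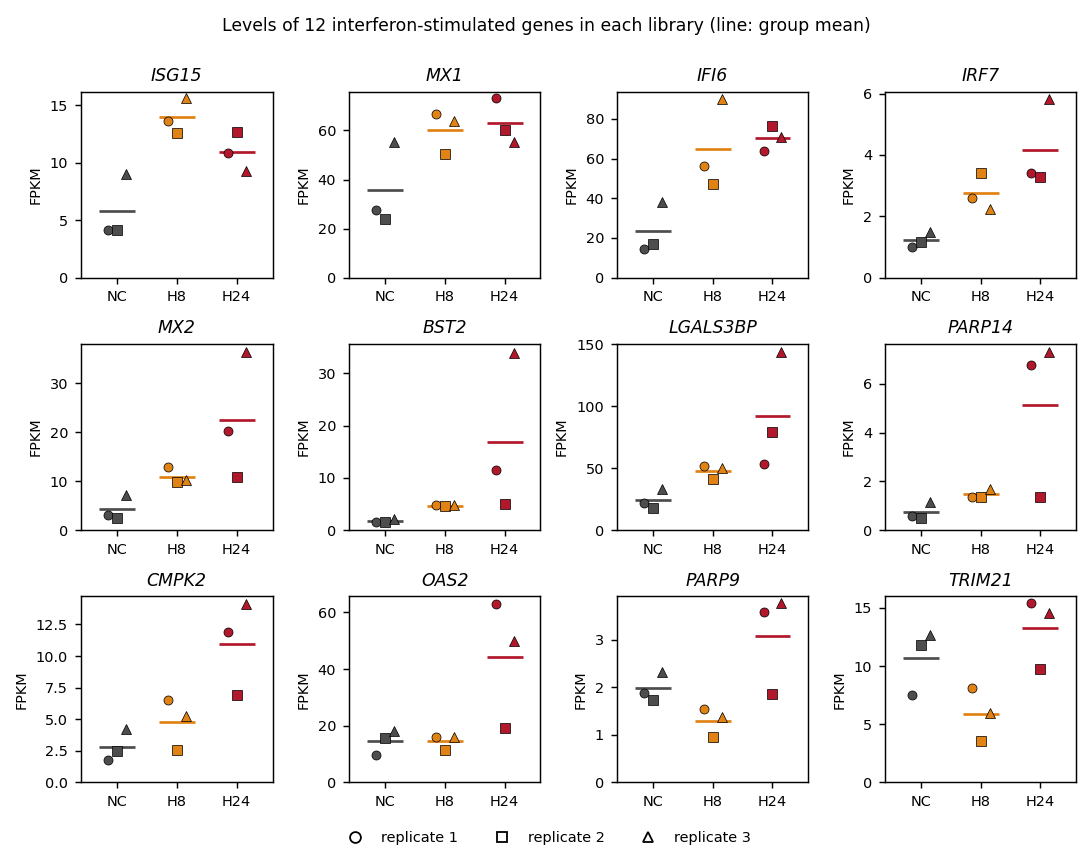
FPKM on linear axes that start at 0 for 12 interferon-stimulated genes, with a point for each library (shape gives the replicate) and a line at each group mean. IRF7, MX2, BST2 and LGALS3BP are above NC in all H8 and H24 libraries, while OAS2 separates H24 from NC and H8.

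The Mx proteins are GTPases that block viral replication complexes. Their genes lie side by side on chromosome 13 of Sscrofa11.1, MX2 at 204798302 to 204831975 and MX1 at 204847561 to 204868477, with 15585 bases between them. MX2 was at 3.14, 2.54 and 7.06 FPKM in NC, 12.8, 9.78 and 10.2 in H8 and 20.3, 10.8 and 36.3 in H24. It was above NC in all 6 diet libraries, rose 2.84-fold in H8/NC (log2 1.5 ± 0.37, adjusted p = 0.204) and 5.21-fold in H24/NC (log2 2.38 ± 0.56, adjusted p = 0.14 with edgeR), and kept both calls with each library left out. MX1 was more abundant, at 27.5, 23.8 and 55.4 FPKM in NC, 66.7, 50.4 and 64.0 in H8 and 73.3, 60.1 and 55.1 in H24. NC replicate 3 reached the lower diet values. MX1 was not called (log2 0.9 ± 0.31 in H8/NC, 0.8 ± 0.34 in H24/NC), its H24/H8 value was -0.12 ± 0.22, and the difference between the neighbours was not tested. GBP2, a guanylate-binding GTPase, was at 3.96 to 8.27 FPKM in NC, 3.6 to 5.39 in H8 and 5.27 to 10.2 in H24, overlapped in all comparisons and was not called.

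ISG15 is a ubiquitin-like protein that is attached to other proteins by UBA7 and HERC5 and removed by USP18. It stood at 4.13, 4.13 and 9.01 FPKM in NC, 13.6, 12.6 and 15.6 in H8 and 10.8, 12.7 and 9.27 in H24. All diet libraries were above NC, and H24 replicate 2 was level with the lowest H8 library while the other H24 libraries were below it. ISG15 rose 2.67-fold in H8/NC (log2 1.41 ± 0.32, adjusted p = 0.191 with edgeR), a call kept with each library left out. In H24/NC it was 1.87-fold, short of the fold limit (log2 0.9 ± 0.37), and H24/H8 was -0.53 ± 0.23. Without H24 replicate 3 the H24/NC value was 2.01-fold (log2 1.01 ± 0.39) and was called.

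Of the enzymes around ISG15, HERC5 was called. HERC5, the ligase, was at 0.616, 0.775 and 2.08 FPKM in NC, 2.55, 1.74 and 1.79 in H8 and 3.0, 2.21 and 3.6 in H24. NC replicate 3 overlapped H8, and H24 was above NC throughout. HERC5 was called in H24/NC (2.5-fold), a call lost without NC replicates 1 or 2 or H24 replicates 1 or 3. USP18 was at 10.9, 11.0 and 15.9 FPKM in NC, 10.2, 12.9 and 20.8 in H8 and 11.0, 18.8 and 11.9 in H24, with all groups overlapping and a log2 fold change of 0.13 ± 0.31 in H24/NC. UBA7 (2.43 to 10.5 FPKM over the 9 libraries) and the E3 ligase TRIM25 (4.96 to 13.2 FPKM) were not called either.

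PARP9, PARP14 and DTX3L lie within 1 stretch of chromosome 13, PARP14 at 137809503 to 137865762, DTX3L at 137952520 to 137961372 and PARP9 at 137961043 to 138001674. PARP9 and DTX3L, which work as a ubiquitin ligase complex, overlap by 330 bases on opposite strands. PARP14 was at 0.588, 0.507 and 1.16 FPKM in NC, 1.36, 1.37 and 1.67 in H8 and 6.76, 1.35 and 7.3 in H24. Both diet groups were above NC, and H24 replicate 2 was as low as the H8 libraries. It rose 2.14-fold in H8/NC and 6.67-fold in H24/NC (log2 2.74 ± 0.66, adjusted p = 0.149 with edgeR). The H24/H8 call (3.04-fold) was lost in 5 of the 6 fits with 1 library left out, all but that without H24 replicate 2, and the H8/NC call without NC replicates 1 or 2.

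PARP9 had its lowest levels at 8 weeks. Its FPKM was 1.88, 1.74 and 2.32 in NC, 1.54, 0.964 and 1.37 in H8 and 3.59, 1.86 and 3.77 in H24. H8 was below both other groups in every library, and H24 replicate 2 was inside the NC range. PARP9 was called in H24/H8 (2.09-fold, log2 1.06 ± 0.32, adjusted p = 0.341 with edgeR), not in H8/NC (log2 -0.48 ± 0.22) or H24/NC (0.61 ± 0.31). The H24/H8 call was lost without H24 replicate 1, H24 replicate 3 or H8 replicate 2. DTX3L was at 2.07 and 2.23 FPKM in H24 replicates 1 and 3 and at 0.594 in replicate 2, and was not called.

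CMPK2 and RSAD2 sit 5517 bases apart on chromosome 3 and are transcribed on opposite strands. RSAD2 (viperin) converts a nucleotide into a chain terminator, and CMPK2 is a mitochondrial nucleotide kinase. CMPK2 was at 1.81, 2.46 and 4.22 FPKM in NC, 6.5, 2.6 and 5.25 in H8 and 11.9, 6.92 and 14.1 in H24. All H24 libraries were above all others, and H8 replicate 2 lay within NC. It rose 3.79-fold in H24/NC (log2 1.92 ± 0.41, adjusted p = 0.132 with edgeR) and 2.03-fold in H24/H8, the latter lost without H24 replicates 1 or 3 or H8 replicates 2 or 3. RSAD2 was at 0.299 to 1.41 FPKM in NC, 1.68 to 1.92 in H8 and 0.983 to 4.97 in H24. It was called in H8/NC (2.76-fold) and in H24/NC (3.74-fold), but both calls were lost without NC replicate 1 or 2, the first also without H8 replicates 2 or 3 and the second also without H24 replicate 1.

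SAMHD1, which hydrolyses the nucleotides needed for DNA synthesis, was at 6.33, 7.92 and 10.1 FPKM in NC, 8.48, 8.47 and 5.41 in H8 and 20.4, 8.53 and 23.9 in H24. H24 replicate 2 overlapped NC and was just above H8. SAMHD1 was called in H24/NC (2.12-fold) and H24/H8 (2.03-fold), and its H8/NC value was 1.02-fold. The first call was lost without NC replicates 1 or 2 or H24 replicates 1 or 3, and the second in every fit with 1 library left out but that without H24 replicate 2.

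BST2 (tetherin), which holds budding virus on the cell surface, had the lowest p of the genes in H8/NC. It was at 1.5, 1.55 and 2.14 FPKM in NC, 4.77, 4.53 and 4.77 in H8 and 11.5, 4.94 and 34.0 in H24. The 3 groups did not overlap, with H8 within a narrow band and H24 spread over a wide one. BST2 rose 2.98-fold in H8/NC (log2 1.57 ± 0.25, adjusted p = 0.108) and 9.55-fold in H24/NC (log2 3.26 ± 0.7, adjusted p = 0.132 with edgeR), both kept with each library left out, although H24/NC was 4.62-fold without H24 replicate 3. The 3.11-fold H24/H8 call was lost without H24 replicate 3 (1.53-fold) or any one of the H8 replicates. TRIM21, an antibody receptor in the cytosol, was at 7.52, 11.8 and 12.7 FPKM in NC, 8.11, 3.59 and 5.99 in H8 and 15.4, 9.74 and 14.6 in H24. H24 was above H8 in every library, NC overlapped both, and the H24/H8 log2 fold change of 0.99 ± 0.34 fell just short of a call.

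The remaining genes included LGALS3BP and IFI6, which with MX1 had the highest mean FPKM of the set. LGALS3BP, a secreted glycoprotein that binds galectin, was at 21.8, 18.0 and 33.5 FPKM in NC, 51.9, 41.1 and 50.2 in H8 and 53.2, 79.2 and 144 in H24. The 3 groups were separate in order of feeding. It rose 2.15-fold in H8/NC (log2 1.1 ± 0.23, adjusted p = 0.187), a call lost without NC replicate 2, and 3.74-fold in H24/NC (log2 1.9 ± 0.43, adjusted p = 0.135 with edgeR). IFI6, a small membrane protein that blocks flavivirus replication, was at 14.3, 17.2 and 38.3 FPKM in NC, 56.5, 47.4 and 89.9 in H8 and 64.0, 76.4 and 70.8 in H24. Both diet groups lay above NC and overlapped each other. IFI6 rose 3.03-fold in H8/NC (log2 1.6 ± 0.4) and 2.99-fold in H24/NC (log2 1.58 ± 0.39), with H24/H8 at -0.04 ± 0.27.

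EPSTI1, expressed in stroma and macrophages, was at 6.53, 3.85 and 3.1 FPKM in NC, 10.6, 4.83 and 7.98 in H8 and 19.1, 8.76 and 10.7 in H24. H24 was above NC in every library, and H8 replicate 2 was inside the NC range. It rose 2.8-fold in H24/NC and kept the call with each library left out. IFI44 (2.31-fold) and IFI44L (2.05-fold), cytosolic proteins of little known function, were called in H24/NC, and both calls were lost without H24 replicate 1 or without NC replicates 1 or 2. IFI35 was 1.79-fold higher in H24/NC and 1.38-fold higher in H8/NC, with no overlap in either, and passed no call.

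**Figure D4:**
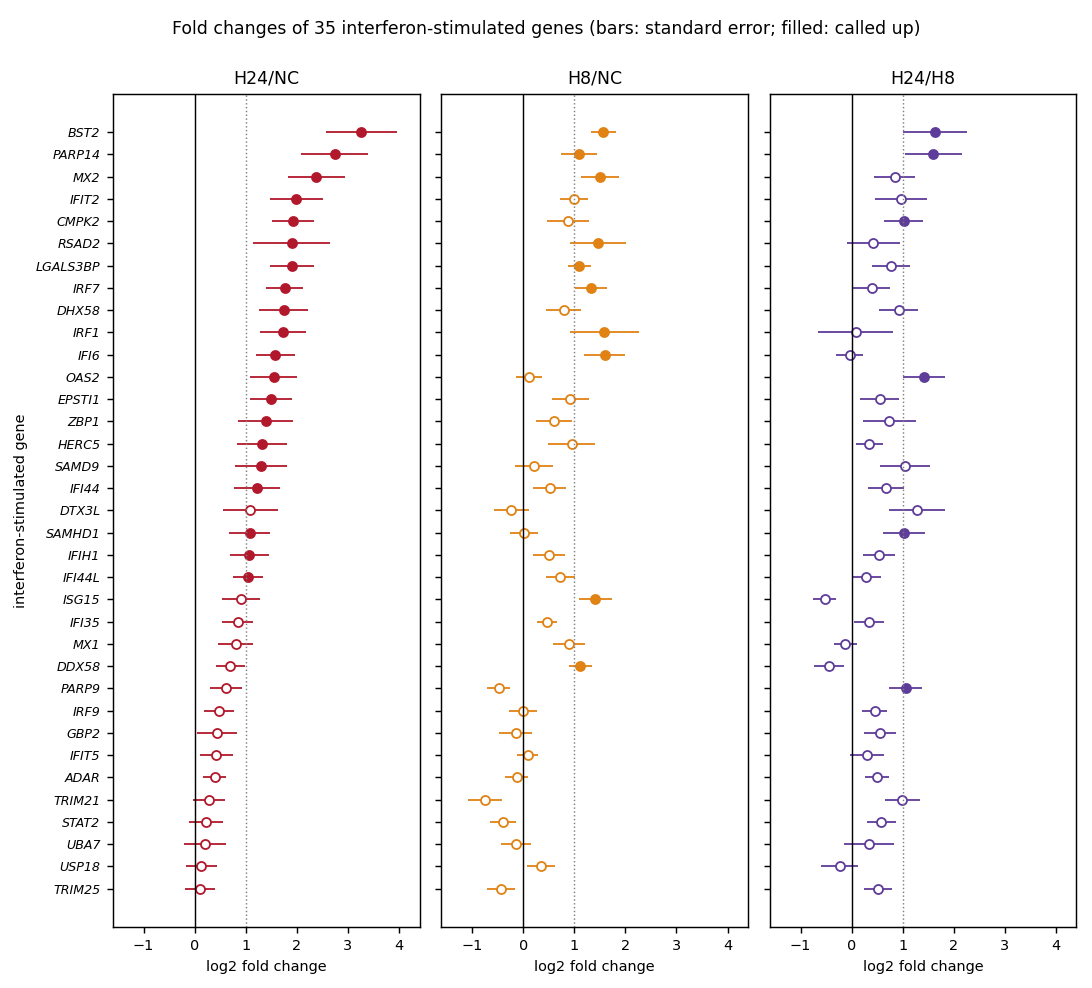
Log2 fold change with its standard error from edgeR for 35 interferon-stimulated genes in H24/NC, H8/NC and H24/H8, ordered by H24/NC, with filled points for calls and a dotted line at the fold limit. ISG20 and OASL are not drawn. All points of H24/NC are above 0, those of H8/NC run from -0.74 for TRIM21 to 1.6 for IFI6, and those of H24/H8 run from -0.53 for ISG15 to 1.63 for BST2.

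ISG20 aside, 12 of the 20 H24/NC calls were kept with each library left out in turn: MX2, IFIT2, OAS2, DHX58, IRF1, IRF7, IFI6, PARP14, BST2, CMPK2, LGALS3BP and EPSTI1. The same held for 5 of the 10 H8/NC calls, ISG15, MX2, IRF7, IFI6 and BST2, and for 1 of the 6 H24/H8 calls, OAS2. The share of calls kept in this way over all genes was not counted, so these counts do not set the interferon genes apart from other called genes. H24/NC and H8/NC share the NC libraries, among which replicate 3 was highest for most of these genes. H8/NC and H24/H8 share the H8 libraries. A low H8 value therefore moves these comparisons in opposite directions.

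Macrophage RNA moved with diet as well. All 12 macrophage markers were called higher in H24/NC and in H24/H8, and 8 of 12 in H8/NC, with median log2 fold changes of 4.83, 2.79 and 1.89. Without H24 replicate 3, 11 of 12 were called in H24/NC and 2 of 12 in H24/H8, with medians of 3.09 and 1.07. CD68, a lysosomal protein of macrophages, was at 4.1 to 6.23 FPKM in NC, at 39.6, 5.4 and 23.5 in H8 and at 65.3, 38.7 and 616 in H24. H8 replicate 2 was thus inside the NC range for CD68. In that library 13 of the 37 interferon genes were above every NC library, among them ISG15 at 12.6, IFI6 at 47.4, MX2 at 9.78, IRF7 at 3.41, BST2 at 4.53 and LGALS3BP at 41.1 FPKM, and 10 were below every NC library. The 10 were IFIT5, STAT2, IRF9, PARP9, DTX3L, SAMD9, TRIM21, TRIM25, UBA7 and ADAR. Of the 12 macrophage markers, 4 were above every NC library there and 2 below. The share of all genes outside the NC range in this library was not counted. No difference between the 2 lists is therefore read from these counts. Of the 5 neutrophil markers with a row, 2 were above every NC library in H8 replicate 2, 1 was below, and 3 were at 0 FPKM. The neutrophil and myeloid receptor CSF3R was 1 of the 2 above, at 2.21 FPKM against 0.232 to 0.301 in NC.

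In H24 replicate 3 the macrophage markers were at 4.69 to 11.9 times the mean of the other H24 libraries, with a median of 7.75. The interferon genes were at 0.374 (UBA7) to 4.97 times (ISG20) that mean, with a median of 1.41 over 36 genes. BST2 was at 4.13 times, IFI6 at 1.01, MX1 at 0.826 and ISG15 at 0.791 times, and 10 of the 36 were below 1. Of the T and NK cell markers, 6 of 7 tested were called higher in H24/NC, 3 of 4 in H8/NC and 7 of 7 in H24/H8, and without H24 replicate 3 the counts were 5 of 7 in H24/NC and 2 of 7 in H24/H8. CD3D, CD3E, CD3G, CD8A and CD4 averaged 0.0194 to 0.0965 FPKM in NC and passed the minimum through H24. A rise was thus built into their H24/NC tests. The same held for CD4 and CD3E in H8/NC, through H8. It also held for CD3D, CD3G and CD8A in H24/H8, at 0.0211 to 0.0983 FPKM in H8. Of the neutrophil markers, 3 of 5 tested were called higher in H24/NC and 4 of 5 in H24/H8, against 1 of 3 and 0 of 1 without H24 replicate 3. S100A9, S100A12 and MPO averaged 0 to 0.035 FPKM in NC and 0 to 0.0322 FPKM in H8. They passed the minimum through H24, as S100A8 did in H24/H8 (0 FPKM in H8), so that a rise was built into these tests. In H8/NC the 1 neutrophil marker tested, CSF3R, was called, with log2 3.84 ± 0.33 and an adjusted p of 0.0206 with edgeR. Of 6 plasmacytoid dendritic cell markers, the cell known for the largest output of interferon, 2 had a row and neither was called. The part of these cells in the interferon gene levels was not tested.

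Upstream genes of the pathway were counted from lists given by role, and their counts stand against 9.95% of all genes called higher in H24/NC, 5.11% in H8/NC and 7.22% in H24/H8, and without H24 replicate 3 against 6.49% in H24/NC and 3.75% in H24/H8. The interferons themselves gave few or no counts. IFNB1 gave 0 counts in 8 of 9 libraries and 4 in H8 replicate 3. IFNG gave 6 counts in H8 replicate 3, 9 in H24 replicate 1 and 24 in H24 replicate 3, and 0 in the others. In none of the 3 comparisons was an interferon ligand called (0 of 2, 0 of 2 and 0 of 1 tested). Of 10 receptor and kinase genes, 1 was called in H24/NC, the interferon gamma receptor chain IFNGR1 (log2 1.22 ± 0.39), a share at the level of all genes, and 0 in the others. Without H24 replicate 3, IFNGR1 was not called in H24/NC and the kinase gene JAK2 was called in H24/H8 (log2 1.06 ± 0.37).

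Of 13 genes of the nucleic acid sensing pathways ahead of interferon (receptors, adaptors, kinases, transcription factors and a nuclease), 8 were called higher in H24/NC, 2 in H8/NC and 7 in H24/H8. The counts were 6 in H24/NC and 1 in H24/H8 when H24 replicate 3 was left out. They included the endosomal RNA receptor TLR8 (H24/NC log2 4.37 ± 0.94), IRF8 (4.46 ± 0.81) and IRF5 (3.92 ± 0.63), all 3 of which are expressed in myeloid cells, and the kinase IKBKE (2.14 ± 0.56). Without that library the log2 fold changes were 3.27 for TLR8, 3.12 for IRF8, 2.96 for IRF5 and 1.26 for IKBKE, all still called. IRF8 was at 0.611 to 0.8 FPKM in NC, at 1.24 to 4.78 in H8 and at 4.98 to 36.0 in H24. Of 4 negative regulators, 2 were called in H24/NC, 1 in H8/NC and 1 in H24/H8, among them SOCS1, an inhibitor of the receptor kinases (H24/NC log2 1.41 ± 0.59), and PTPN6, a phosphatase of blood cells (4.34 ± 0.96). Without H24 replicate 3 the H24/NC value of PTPN6 was 2.56, SOCS1 was not called, and no negative regulator was called in H24/H8. A further list of interferon-stimulated genes outside the 42 had 22 of 37 tested genes called higher in H24/NC (9.95% of all genes), 5 of 35 in H8/NC (5.11%) and 13 of 37 in H24/H8 (7.22%), with none lower. Leaving out H24 replicate 3, the counts were 13 of 35 in H24/NC (6.49%) and 2 of 35 in H24/H8 (3.75%). IDO1, STAT4, CXCL11 and SLFN11 averaged 0.00825 to 0.039 FPKM in NC and passed the minimum through H24. A rise was thus built into their H24/NC tests. The same held in H8/NC for CXCL11 and SLFN11, through H8, and in H24/H8 for IDO1 and STAT4. TAP1, which carries peptides to MHC class I, rose in H24/NC (log2 1.43 ± 0.33) and was at 9.79 to 13.1 FPKM in NC, 11.4 to 13 in H8 and 18.9 to 43.4 in H24.

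Beside the pairs on chromosomes 3 and 13, IFIT2 and IFIT5 lie 47973 bases apart on chromosome 14, and IFI44 lies inside the gene model of IFI44L on chromosome 6, sharing 16851 bases. The interval of 15 of the 37 genes overlaps that of another gene, for example IRF7 with PHRF1, IRF9 with REC8, STAT2 with PAN2 and DDX58 with ACO1 and TOPORS. Whether the library kept strand is not given in the sources used here, so reads from such pairs cannot be assigned with certainty. In the table's own annotation, 18 of the 37 carry the term for defense response to virus. Reads of the similar genes MX1 and MX2, or IFIT2 and IFIT5, may also have been split between them.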

How the data were processed

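Total RNA of abdominal aorta from 9 Tibetan minipigs (3 each of NC, H8 and H24, by the labels) was poly(A)-selected and sequenced in paired ends on an Illumina HiSeq 4000. Alignment by the authors used HISAT 2.0 with Sscrofa11.1 as the reference, and StringTie 1.3.0 assembled transcripts and quantified them. The deposited table gives FPKM, and estimated counts, per gene and library. How the counts were derived is not given in the sources used here. Of the 37 genes, 35 have the same symbol in RefSeq's Sscrofa11.1 annotation, and all 35 intervals overlap it.

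The deposited counts were whole numbers and were used as given. Each pair of groups was fitted with edgeR 4.0.16 (quasi-likelihood test, TMM, R 4.3.3) after dropping genes whose FPKM averaged under 0.1 in the libraries compared. The study's rule made a call: unadjusted p under 0.05 and a log2 fold change beyond 1. Adjusted p-values are Benjamini-Hochberg values over all genes tested. Errors beside log2 fold changes are standard errors. Levels on the log2 scale are log2(FPKM + 0.1). Alternatives were DESeq2 1.42.0, other scalings and filters, limma 3.58.1 on FPKM, 1 fit of all libraries, a replicate block, rows of one name summed, and leaving out each library. 

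The members and lists were chosen with earlier results of these data known. Genes with values in every library were the most abundant and the lowest H24/NC p of each role, and the 5 lowest p of each comparison. IFI6, IRF1, IFIT2, EPSTI1 and the genes outside the list were added after their values were seen. No sequence of these genes was used here. The labels state no separate pairing of pigs, and if libraries of a group are not separate animals the p-values measure technical spread. Same-numbered libraries did not deviate together (correlations of -0.048 to 0.082), so the numbers were not used to pair them.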

Additional observations from a re-analysis of the deposited data

Results flagged for a closer look

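The H24/H8 fit compares the change from NC between the 8-week and the 24-week groups, as the shared NC libraries cancel. There 6 of 37 genes were called higher by the unadjusted rule, against 7.22% of all 14788 genes, and 0 after adjustment with edgeR. These 6 are listed because of that call. The log2 fold change of H24/H8 was 1.63 for BST2, 1.6 for PARP14, 1.42 for OAS2, 1.06 for PARP9, 1.02 for CMPK2 and 1.02 for SAMHD1, each called at an unadjusted p under 0.05, and edgeR's adjusted p over all genes was 0.336 to 0.347. Of these, OAS2 stayed called with each library left out, and leaving out H24 replicate 3 ended the calls of the other 5. TRIM21 (0.99) and DHX58 (0.92) also had an unadjusted p under 0.05 there but missed the fold limit. ADAR was listed because all H24 libraries were above the NC mean while all H8 libraries were below it. Its H24/H8 log2 fold change was 0.5, it was not called, and the difference did not pass the test (adjusted p = 0.393 with edgeR).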

How the results depend on the processing

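With 3 libraries a group, adjusted calls depended on the tool. edgeR's quasi-likelihood test gave 0 in each comparison (24, 16 and 8 genes at an unadjusted p under 0.05), and DESeq2 gave 14 in H24/NC, 8 in H8/NC and 1 in H24/H8. ISG20 is among the 24 and the 16, and among the DESeq2 genes of H24/NC and H8/NC. DESeq2 called 10 genes by the unadjusted rule in H24/H8 against 6, and limma on log2(FPKM + 1), which understates the change of low genes, called 4 in H8/NC against 11. Over all genes, DESeq2 called 1288 of 14788 higher in H24/H8 against 1068. In H8/NC limma at that pseudocount called 202 of 14336 against 733. With the replicate number as a block the calls were 18 in H24/NC (1114 of all 14828 genes), 10 in H8/NC (639 of 14336) and 4 in H24/H8 (800 of 14788), and the numbers did not pair the libraries. With 1 library left out, the genes called higher were 13 to 22 in H24/NC (13 without NC replicate 1 or 2), 8 to 15 in H8/NC and 1 to 13 in H24/H8 (1 without H24 replicate 3, 2 without H8 replicate 2 or 3, 3 without H24 replicate 1, 4 without H8 replicate 1 and 13 without H24 replicate 2). Over all genes the counts called higher moved as well. They were 946 to 1795 in H24/NC, 569 to 796 in H8/NC and 547 to 1407 in H24/H8 (1407 without H24 replicate 2), of 14256 to 14892 tested. Adjusted calls in H24/NC were 0 to 1 and genes called lower in H8/NC 0 to 1 (1 without H8 replicate 1, where 427 of all 14377 genes were called lower).

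The median log2 fold change of the genes stayed above 0 under the alternatives run, from 0.92 to 1.48 in H24/NC, 0.42 to 0.85 in H8/NC and 0.44 to 0.76 in H24/H8. Scaling by FPKM moved the median of all genes to -0.12 in H8/NC and 0.18 in H24/H8 with limma on log2(FPKM + 0.1). Genes with values near 0 changed direction, as did OASL (0.54 ± 1.79 in H24/H8), which has few counts. None of them was called there. In H8/NC, IRF9 was -0.01 with DESeq2, with median-ratio scaling and in 1 fit of all libraries, and limma gave IRF9 -0.11, -0.1 and -0.11, IFIT5 -0.06, -0.05 and -0.07 and SAMHD1 -0.13, -0.11 and -0.13 at pseudocounts of 0.1, 1 and 0.01. In H24/H8, IFI6 was 0.01 in 1 fit of all libraries and 0.17 with limma at each pseudocount, MX1 0.06 with limma, and OASL -1.68 with the block and -0.0032 and -1.11 with limma at pseudocounts of 0.1 and 0.01. The cause was not tested.

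With 1 library left out, log2 fold changes that crossed 0 in H24/NC ranged from -0.03 to 0.5 for STAT2, -0.1 to 0.29 for TRIM25, -0.27 to 0.55 for UBA7 and -0.18 to 0.32 for USP18. In H8/NC they ranged from -0.27 to 0.03 for ADAR, -0.34 to 0.27 for GBP2, -0.13 to 0.2 for IFIT5, -0.22 to 0.21 for IRF9, -0.13 to 0.29 for OAS2, -0.01 to 0.53 for SAMD9, -0.15 to 0.24 for SAMHD1 and -0.32 to 0.13 for UBA7. In H24/H8 they ranged from -0.17 to 0.22 for IFI6, -0.02 to 0.53 for IFIT5, -0.42 to 1.36 for IRF1, -0.28 to 0.79 for RSAD2, -0.14 to 0.67 for UBA7 and -0.58 to 0.04 for USP18. The direction of these genes in these comparisons is therefore not fixed by the data, and depth limits ISG20 in NC and OASL throughout.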
